A study of Homo sapiens with 12 samples.

Results

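CPS1, which encodes the mitochondrial enzyme carbamoyl phosphate synthetase, was followed together with ASS1, ASL, ARG2 and NAGS, which encode other proteins of the urea cycle, and with STK11, the gene of the kinase LKB1. These 6 genes were taken by symbol from the 25365 gene names in the expression table. CPS1 was picked because its level was far lower in PARP3-/- cells, so its genotype values are given as a description with no test. The others were picked by name, for their step in the cycle or, for STK11, for its link with CPS1 in lung cancer.

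The urea cycle disposes of ammonia as urea and works in full mainly in hepatocytes. In the mitochondrion NAGS makes N-acetylglutamate, the activator that CPS1 requires, and CPS1 joins ammonia and bicarbonate to carbamoyl phosphate. OTC transfers it to ornithine, ASS1 and ASL turn the resulting citrulline into arginine in the cytosol, and an arginase (ARG1 in the cytosol, ARG2 in mitochondria) releases urea and ornithine. LKB1 activates AMPK and a family of related kinases, and CPS1 expression has been linked to LKB1 loss in lung adenocarcinoma, where carbamoyl phosphate can feed pyrimidine synthesis.

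The cells were A549, an epithelial line from a human lung adenocarcinoma that is known to carry an inactivating STK11 mutation. RNA-seq compared wild-type (WT) and PARP3-/- A549 cells, each given vehicle (DMSO) or 1 µM pyridostatin, a ligand that stabilises G-quadruplex (G4) DNA, for 24 h. Each of the 4 groups held 3 biological replicates, 12 libraries in all. The PARP3-/- cells were made by deleting a stretch of PARP3 with Cas9 and growing cells out by serial dilution, so the deletion and other differences that a cloned line carries cannot be told apart. How many clones were used is not given in the sources used here.

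Levels are in FPKM, reads scaled to transcript length and library size. Depth, estimated from the values that 1 read gives, was approximately 21500000 to 30400000 reads per library. PARP3 itself stood at 3.83, 3.40 and 3.96 FPKM in WT with vehicle and at 4.92, 4.07 and 4.25 in the libraries labelled PARP3-/- (with pyridostatin 3.74, 3.57 and 4.05 against 4.73, 4.71 and 4.30). All 6 PARP3-/- libraries (4.07 to 4.92 FPKM) lay above all 6 WT libraries (3.40 to 4.05), as for 6.56% of the tested genes. Neither difference passed (0.19 and 0.22 on the log2(FPKM + 1) scale, limma adjusted p = 0.136 and 0.0781). That with pyridostatin did not pass in 18 of 19 alternatives either (limma adjusted p 0.0403 to 0.212 over the 19). The value covers the whole gene and not only the deleted stretch, so it does not check the genotype labels, and PARP3-/- stands here for the libraries so labelled. The epithelial keratins KRT8 and KRT18 were abundant in every library, whereas the surfactant genes SFTPB and SFTPC, CD3E of T cells and the hepatocyte gene ALB were at or near 0. WT vehicle replicate 2 stood somewhat apart: its correlations with the other WT vehicle libraries over log2 levels were 0.956 and 0.959, and those of all other replicate pairs ran from 0.961 to 0.969.

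NAGS, the first protein of the sequence, was expressed at a low level. It stood at 0.453, 0.674 and 0.503 FPKM in WT with vehicle, 0.490, 0.626 and 0.355 in PARP3-/- with vehicle, 0.497, 0.391 and 0.435 in WT with pyridostatin and 0.694, 0.520 and 0.489 in PARP3-/- with pyridostatin. The groups overlapped within each treatment. With a mean under 1 FPKM, and approximately 17 to 38 reads per library, it was not among the 11881 genes tested. An exact two-sided permutation test of the genotype difference gave p = 0.6 with vehicle and p = 0.2 with pyridostatin, where 0.1 is the smallest p that 3 against 3 allows, and p = 0.61 over both treatments with labels permuted within treatment.

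CPS1 was expressed at 13.2, 11.1 and 13.8 FPKM in WT with vehicle and at 1.07, 1.23 and 1.27 in PARP3-/- with vehicle. With pyridostatin it stood at 13.7, 13.8 and 12.9 FPKM in WT and at 0.837, 1.22 and 1.25 in PARP3-/-. Every PARP3-/- library was far below every WT library (6 below 6, as 3.11% of the tested genes were), and the lowest WT value was the vehicle replicate 2 that stood apart. The ratio of the group means was 10.7 with vehicle (12.7 ± 1.42 against 1.19 ± 0.104 FPKM, SD, n = 3) and 12.2 with pyridostatin (13.5 ± 0.515 against 1.10 ± 0.231). On the log2(FPKM + 1) scale the difference was -2.64 with vehicle and -2.79 with pyridostatin. A pseudocount of 1 understates the change of a gene this low, and with a pseudocount of 0.1 the differences were -3.31 and -3.51. By estimate from FPKM, the approximate depth and the length of a single CPS1 transcript, this is approximately 1642 to 2449 reads in WT libraries and 124 to 177 in PARP3-/- libraries. In bulk RNA, fewer cells that express CPS1 and less CPS1 RNA per cell cannot be told apart.

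Pyridostatin, a contrast that did not choose the gene, gave no CPS1 difference that passed the test. The difference from vehicle was 0.08 on the log2(FPKM + 1) scale in WT (95% interval -0.12 to 0.29, limma adjusted p = 0.664) and -0.06 in PARP3-/- (-0.27 to 0.14, limma adjusted p = 0.763). The test of the difference between these responses gave -0.15 (-0.43 to 0.14, limma adjusted p = 0.999). In the plot of each member by library, CPS1 is the one panel in which the genotypes are far apart.

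**Figure D1:**
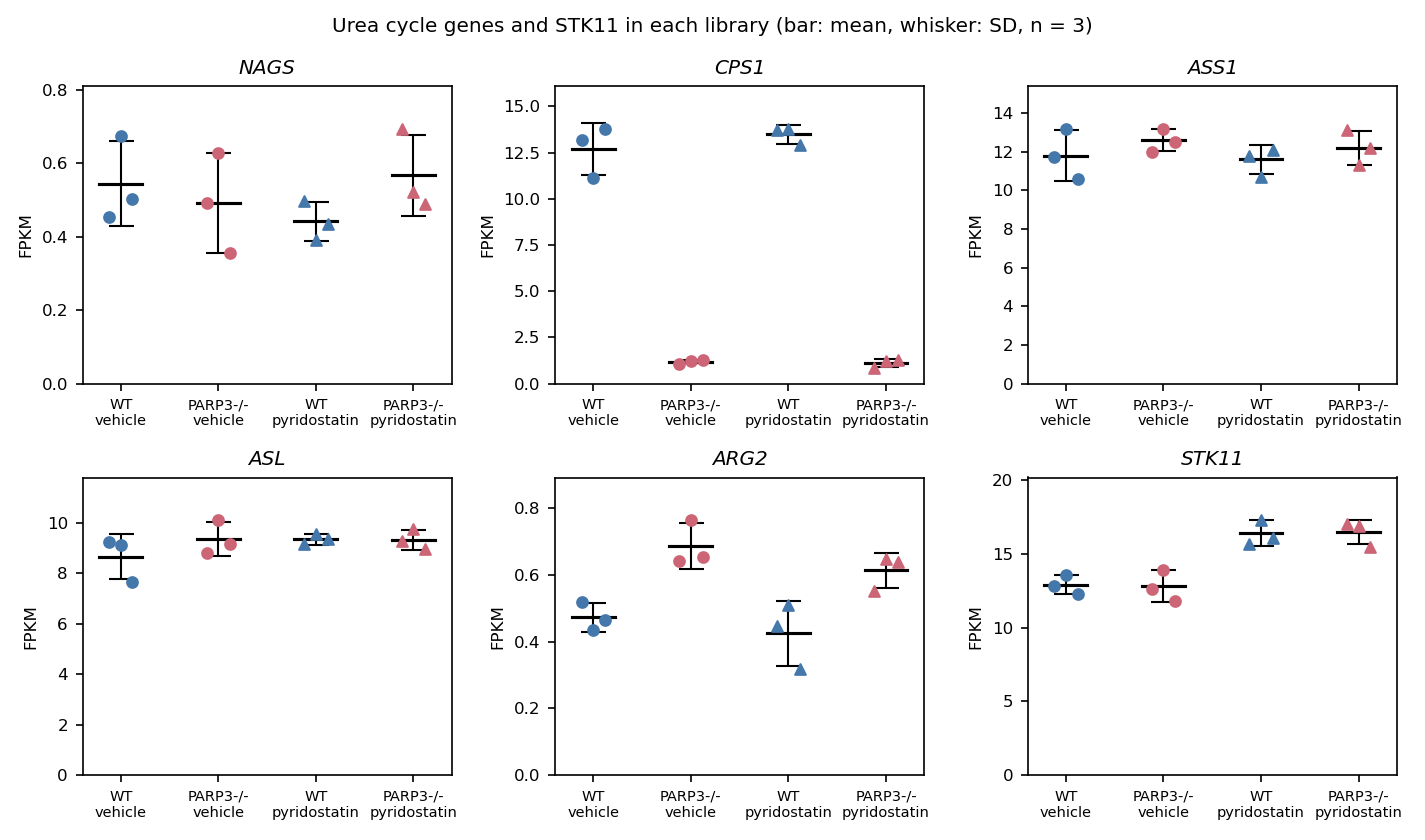
Level in FPKM (vertical axes, each starting at 0) of the 6 genes in the 12 libraries, by group; points are libraries, bars are means and whiskers are SD (n = 3). CPS1 averages 12.7 FPKM in WT and 1.19 in PARP3-/- with vehicle, and STK11 lies higher in both groups given pyridostatin.

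The CPS1 gene has more than 1 annotated start, and the FPKM value is for the whole gene, so it does not show which start was used. RefSeq (GRCh38.p14) gave 3 promoter windows for CPS1, each from 250 bases before to 50 bases after a start. Their GC content was 45.3%, 40.3% and 36.7%, against a median of 58.7% over 35116 windows of this length. None of the 3 holds a G4 pattern, here 4 runs of at least 3 G separated by 1 to 7 bases on either strand, which 25% of all windows hold. The nearest of the windows' starts was 36817 bases from the start of the principal CPS1 transcript in GENCODE release 29, a start that no window covers. The window shown is that at chr2:210477435-210477734 (plus strand, GRCh38.p14), which starts 926 bases from the divergent start of the neighbouring gene LANCL1. Capitals mark runs of 3 or more G or C.
CPS1: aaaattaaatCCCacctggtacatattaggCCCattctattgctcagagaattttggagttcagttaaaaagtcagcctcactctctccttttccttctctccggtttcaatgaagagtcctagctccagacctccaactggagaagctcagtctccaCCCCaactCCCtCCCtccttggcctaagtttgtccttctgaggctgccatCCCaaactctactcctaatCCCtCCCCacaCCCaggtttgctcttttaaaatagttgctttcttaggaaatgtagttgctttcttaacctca

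LANCL1, whose product binds glutathione, lies next to CPS1 on the opposite strand and was expressed in both genotypes. It stood at 16.8, 14.1 and 17.4 FPKM in WT with vehicle, 12.2, 13.1 and 12.8 in PARP3-/- with vehicle, 14.8, 17.8 and 13.6 in WT with pyridostatin and 13.1, 11.9 and 13.2 in PARP3-/- with pyridostatin. The 6 PARP3-/- libraries all lay below the 6 WT libraries, again the pattern of 3.11% of the tested genes. The differences on the log2(FPKM + 1) scale were -0.31 and -0.25, and neither passed the test (limma adjusted p = 0.0692 and 0.138). Over 20 alternatives the limma adjusted p of the vehicle comparison ran from 0.0197 to 0.197, and it passed in 4 of them: without WT vehicle replicate 2 (0.0197), without WT pyridostatin replicate 2 (0.0303), after a shift to a common median (0.0276) and after quantile normalization (0.0365).

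ACADL, an acyl-CoA dehydrogenase gene and another of the 3 nearest coding genes before CPS1, was very low, at 0.306 to 0.599 FPKM in the 6 WT libraries and 0.127 to 0.299 in the 6 PARP3-/- libraries. It was not tested in the main fit, and in the fit without a filter on low values it was lower in PARP3-/- (-0.30, limma adjusted p = 0.0315, with vehicle, and -0.34, limma adjusted p = 0.0147, with pyridostatin), where 7.09% and 7.91% of all genes passed. A pseudocount of 1 understates a change at this level. ACADL averaged 0.436 FPKM in WT and 0.164 in PARP3-/- with vehicle, and 0.525 against 0.204 with pyridostatin. Of the remaining neighbours, MYL1 was listed at 0 throughout, ERBB4 reached at most 0.0125 FPKM and IKZF2 at most 0.174. SPAG16 was at 7.92 to 10.5 FPKM and its genotype differences did not pass (-0.08 and 0.03, limma adjusted p = 0.689 and 0.882). The transcript CPS1-IT1, named for its place in a CPS1 intron, was listed at 0 in 10 of the 12 libraries.

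The 5 genes whose profile over the 12 libraries was nearest to that of CPS1 were SPINK6, H19, DEFB1, CYP4F11 and CES1, by the root mean square difference of centred log2(FPKM + 1) values, which ran from 0.227 for SPINK6 to 0.604 for CES1. They were chosen for this likeness, so their genotype differences are a description. SPINK6, a protease inhibitor gene, averaged 5.96 FPKM in WT and 0.153 in PARP3-/- with vehicle. H19, an imprinted long non-coding RNA, averaged 10.1 against 1.34 FPKM, and DEFB1, a beta-defensin gene, 7.63 against 0.586. The cytochrome P450 gene CYP4F11 averaged 2.93 against 0.101 FPKM, and CES1, a carboxylesterase gene abundant in liver, 2.53 against 0.211. With pyridostatin H19 averaged 7.44 FPKM in WT and 0.794 in PARP3-/-, and DEFB1 averaged 6.01 and 0.744. For these pyridostatin values no test is given here.

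**Figure D2:**
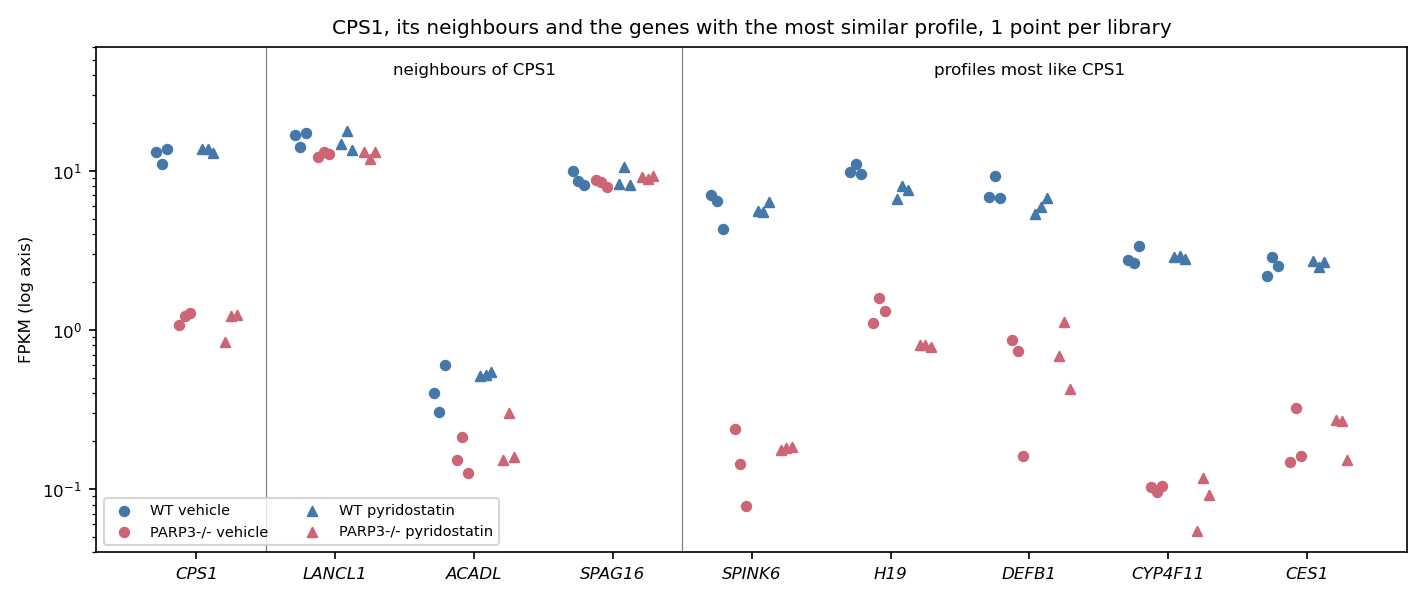
Level in FPKM (log axis) in each of the 12 libraries for CPS1, 3 of its neighbours with measurable levels and the 5 genes with the most similar profile; circles are vehicle, triangles pyridostatin, blue WT and red PARP3-/-. LANCL1 and SPAG16 lie between 7.92 and 17.8 FPKM in both genotypes, and ACADL at 0.306 to 0.599 in WT and 0.127 to 0.299 in PARP3-/-. The similar genes are several-fold lower in PARP3-/- by construction of the choice.

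OTC, which uses the carbamoyl phosphate that CPS1 makes, was listed at 0 in every library except WT pyridostatin replicate 2 (0.0203 FPKM). SLC25A15, the mitochondrial ornithine and citrulline carrier, was well expressed, at 7.97 to 10.3 FPKM over the 12 libraries. Its genotype differences were -0.09 and -0.10 on the log2(FPKM + 1) scale and did not pass (limma adjusted p = 0.416 and 0.312). CAD, the cytosolic enzyme that makes its own carbamoyl phosphate for pyrimidine synthesis, stood at 21.3, 19.7 and 22.9 FPKM in WT and 19.9, 19.8 and 20.1 in PARP3-/- with vehicle. With pyridostatin CAD stood at 21.2, 19.9 and 22 FPKM in WT and 18.2, 20.9 and 21.2 in PARP3-/-, so its groups overlapped. The CAD differences of -0.09 and -0.07 did not pass (limma adjusted p = 0.518 and 0.618).

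ASS1, which joins citrulline to aspartate, was at 11.7, 13.2 and 10.6 FPKM in WT and 12, 13.2 and 12.5 in PARP3-/- with vehicle, and at 11.8, 10.7 and 12.1 in WT and 13.1, 11.3 and 12.2 in PARP3-/- with pyridostatin. The genotypes overlapped under both treatments. The genotype difference on the log2(FPKM + 1) scale was 0.08 with vehicle (95% interval -0.09 to 0.26, limma adjusted p = 0.607) and 0.07 with pyridostatin (-0.10 to 0.25, limma adjusted p = 0.633). Both intervals lie within 0.26 of 0.

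ASL, which splits argininosuccinate to arginine and fumarate, was at 9.21, 9.10 and 7.64 FPKM in WT and 8.79, 10.1 and 9.16 in PARP3-/- with vehicle, and at 9.13, 9.56 and 9.33 in WT and 9.25, 9.74 and 8.95 in PARP3-/- with pyridostatin. Here too the genotypes overlapped, and the lowest of the 12 values was WT vehicle replicate 3. The genotype difference was 0.10 with vehicle (-0.05 to 0.26, limma adjusted p = 0.443) and -0.00 with pyridostatin (-0.16 to 0.15, limma adjusted p = 0.985).

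ARG2, the mitochondrial arginase, was low but lay higher in PARP3-/- cells. It stood at 0.518, 0.433 and 0.463 FPKM in WT and 0.640, 0.764 and 0.653 in PARP3-/- with vehicle, and at 0.445, 0.510 and 0.318 in WT and 0.552, 0.648 and 0.638 in PARP3-/- with pyridostatin. All 6 PARP3-/- libraries were above all 6 WT libraries, which was so for 6.32% of the genes with a mean of 0.3 to 1 FPKM. The ratio of the means was 1.45 with vehicle and 1.44 with pyridostatin. The exact two-sided permutation test gave p = 0.1 within each treatment and p = 0.005 over both treatments with labels permuted within treatment, each the smallest p that the design allows. This test was chosen after the values were seen and is not adjusted for the number of genes. In limma without a filter on low values the differences of 0.20 and 0.18 did not pass (adjusted p = 0.0522 and 0.0663). The values rest on approximately 16 to 37 reads per library. ARG1, the liver arginase, was listed at 0 in all 12 libraries.

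STK11 rose with pyridostatin in both genotypes and did not pass the test between them. It stood at 12.8, 13.6 and 12.3 FPKM in WT and 12.6, 13.9 and 11.8 in PARP3-/- with vehicle, and at 15.7, 17.3 and 16.1 in WT and 17.0, 16.9 and 15.5 in PARP3-/- with pyridostatin. All 6 libraries given pyridostatin lay above all 6 given vehicle, as did 4.2% of the tested genes. The rise was 0.32 on the log2(FPKM + 1) scale in WT (SE 0.0640, 95% interval 0.18 to 0.46, limma adjusted p = 0.0226) and 0.34 in PARP3-/- (0.20 to 0.49, limma adjusted p = 0.0127), a ratio of the means of 1.27 and 1.29. The test of the difference between the responses gave 0.02 (-0.18 to 0.22, limma adjusted p = 0.999). The genotype differences were -0.02 (-0.16 to 0.13, limma adjusted p = 0.930) and 0.01 (-0.13 to 0.15, limma adjusted p = 0.963).

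The size of the STK11 rise held while its call was close to the threshold. In WT the rise of 0.28 to 0.35 lost its call without WT vehicle replicate 1 (limma adjusted p = 0.0558) or 3 (0.0762), without WT pyridostatin replicate 1 (0.0538), 2 (0.0626) or 3 (0.0645), and when the 6 WT libraries were fitted alone (0.108), and it kept its call without WT vehicle replicate 2 (0.0184). In PARP3-/- it lost its call without vehicle replicate 3 (0.0519) or pyridostatin replicate 2 (0.0594).

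The RefSeq promoter window of STK11, at chr19:1205528-1205827 (plus strand, GRCh38.p14), is shown because STK11 was the 1 member that rose with a G4 ligand. Its GC content was 75.3%, higher than that of 91.0% of all windows, and it holds the G4 pattern described above, with 22 runs of 3 or more G or C in capitals. The window of ASL and 1 of the 2 windows of ASS1 hold the pattern too, and the pyridostatin differences of those genes in WT were 0.10 and -0.03 and did not pass (limma adjusted p = 0.435 and 0.883). The windows of ARG2 and NAGS, with 71.0% and 64.3% GC, do not hold it. A match of letters does not show that a G4 structure forms there, and a part of the pattern in any pyridostatin difference was not tested.
STK11: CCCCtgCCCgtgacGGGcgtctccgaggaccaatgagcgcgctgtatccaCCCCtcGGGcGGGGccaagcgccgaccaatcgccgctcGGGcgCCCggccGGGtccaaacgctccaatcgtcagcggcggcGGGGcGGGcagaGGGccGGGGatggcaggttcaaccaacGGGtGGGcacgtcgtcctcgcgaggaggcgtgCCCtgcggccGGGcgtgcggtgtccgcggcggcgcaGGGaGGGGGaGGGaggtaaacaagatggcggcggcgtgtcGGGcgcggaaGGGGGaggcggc

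**Figure D3:**
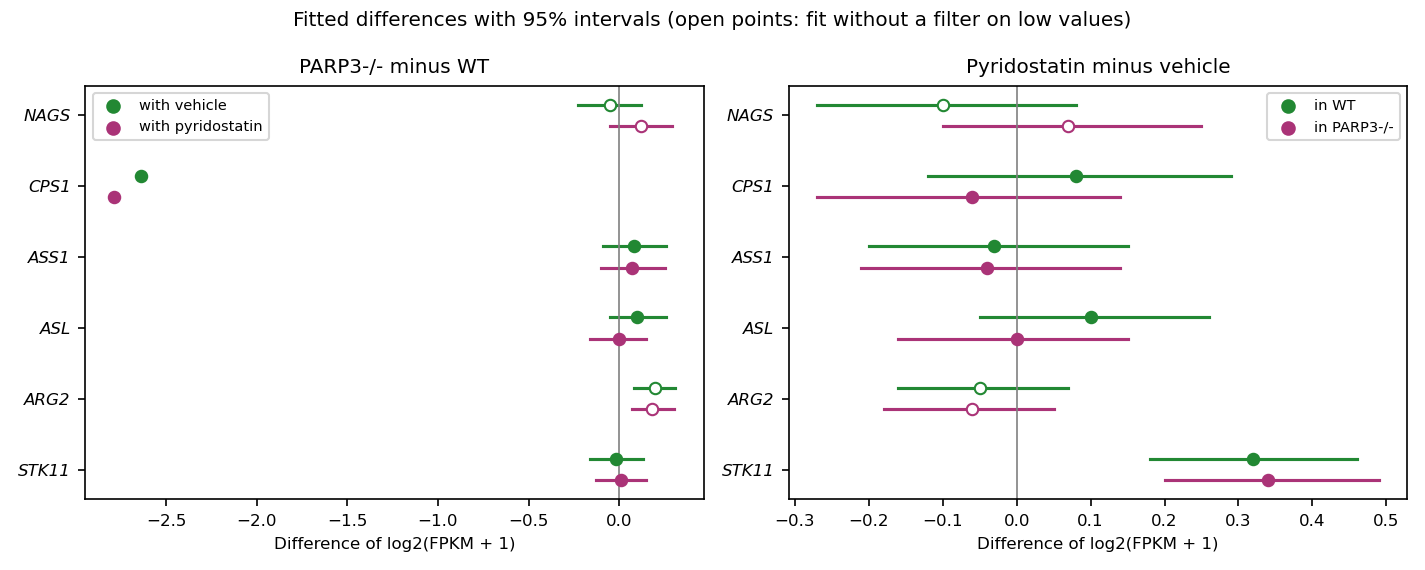
Fitted difference of log2(FPKM + 1) with its 95% interval for the 6 genes (no interval for the genotype difference of CPS1, which chose the gene), left PARP3-/- minus WT and right pyridostatin minus vehicle; open points come from the fit without a filter on low values. On the left CPS1 lies at -2.64 and -2.79, the open points of ARG2 lie above 0 and the other genes lie nearer 0. On the right only the STK11 intervals (0.18 to 0.46 and 0.20 to 0.49) lie wholly above 0.

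By level per transcript length, STK11 (12.9 ± 0.645 FPKM), CPS1 (12.7 ± 1.42) and ASS1 (11.8 ± 1.32) were the highest of the members in WT with vehicle and did not differ beyond their spread. ASL (8.65 ± 0.878) came below them, and NAGS (0.544 ± 0.116) and ARG2 (0.472 ± 0.0432) stood at the bottom within each other's spread. In PARP3-/- with vehicle the order was STK11 (12.8 ± 1.08), ASS1 (12.6 ± 0.567), ASL (9.35 ± 0.682), CPS1 (1.19 ± 0.104), ARG2 (0.686 ± 0.0684) and NAGS (0.490 ± 0.136). CPS1 thus stood among the highest of the 6 in WT and between ASL and ARG2 in PARP3-/-. Beyond CPS1, 0 of the 3 members tested passed between the genotypes in either treatment, and 0 had an unadjusted p under 0.05. Over all genes tested by limma, 9.41% passed with vehicle and 10.9% with pyridostatin. STK11 was the 1 of 4 tested members that passed for pyridostatin, in WT (4.17% of all genes passed) and in PARP3-/- (5.56%).

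Genes of linked pathways were counted in 8 lists that hold 81 genes, 67 of them tested. Between the genotypes with vehicle 8 of the 67 passed (11.9%, against 9.41% of all genes), 4 higher and 4 lower in PARP3-/-, where 6.4% and 3.01% of all genes were higher and lower. With pyridostatin 10 passed (14.9%, against 10.9%), 6 higher and 4 lower, where 7.07% and 3.85% of all genes were. The median difference over the 67 was 0.01 in both, as over all genes. Of the 67, 0 passed an added 2-fold threshold, which 0.362% and 0.396% of all genes passed. Without WT vehicle replicate 2 the counts were 12 and 16, where 13.8% and 19.3% of all genes passed. With vehicle NR3C1 (limma adjusted p = 0.000927), SLC7A2 (0.00149), AMD1 (0.0109), ALDH4A1 (0.0125), SIK3 (0.0143) and SLC25A13 (0.0371) then passed too, and ASNS (0.0833) and OAT (0.0637) did not. With pyridostatin NR3C1 (0.00076), SIK3 (0.0150), PSAT1 (0.0342), FOXA3 (0.0354), STRADA (0.0372) and GLUD2 (0.0497) were added.

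**Figure D4:**
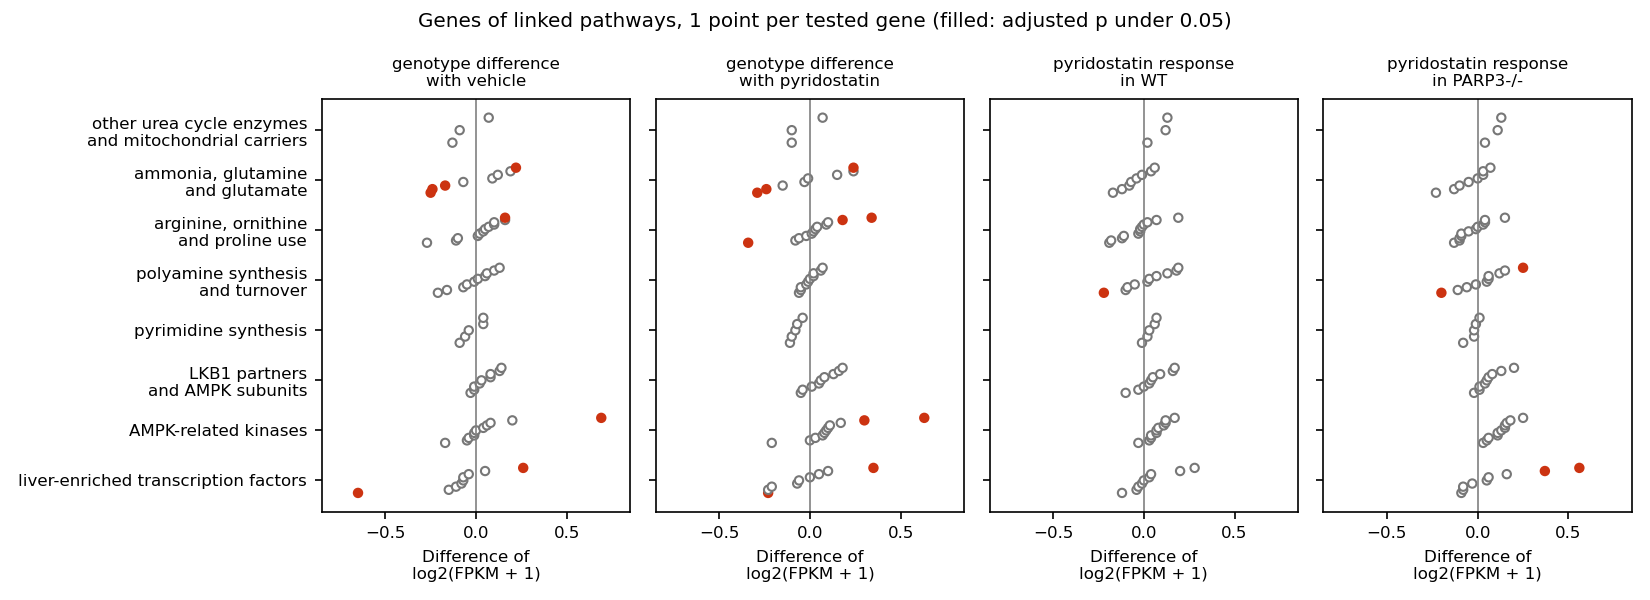
Difference of log2(FPKM + 1), 1 point per tested gene, in 8 lists of linked genes (rows) and 4 comparisons (panels); filled points have a limma adjusted p under 0.05. Most points lie within 0.3 of 0, and NUAK1 (0.69 and 0.63) and CEBPB (-0.65 with vehicle) lie farthest out between the genotypes.

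Among genes of ammonia, glutamine and glutamate, 4 of 8 tested passed with vehicle and 3 of 8 with pyridostatin, against 9.41% and 10.9% of all genes. GLUD1, glutamate dehydrogenase, which releases ammonia from glutamate, was at 46.6, 43.3 and 45.8 FPKM in WT and 50.7, 54.7 and 53.3 in PARP3-/- with vehicle. It was higher in PARP3-/- by 0.22 (limma adjusted p = 0.00727) and, with pyridostatin, by 0.24 (limma adjusted p = 0.00416), though reads of GLUD1 and its near-identical copy GLUD2 may be shared between them. GOT1, the cytosolic aspartate aminotransferase, was at 26.9, 28.8 and 26.2 FPKM in WT and 21.3, 23.6 and 23.2 in PARP3-/- with vehicle, a difference of -0.25 (limma adjusted p = 0.00576), and -0.24 with pyridostatin (limma adjusted p = 0.00719). With only the 6 vehicle libraries fitted, GLUD1 and GOT1 did not pass (limma adjusted p = 0.0622 and 0.0750).

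ASNS, asparagine synthetase, was lower by -0.24 with vehicle (limma adjusted p = 0.0444) and -0.29 with pyridostatin (limma adjusted p = 0.0137). The vehicle call of ASNS was lost in 14 of 20 alternatives. It was lost when any library other than WT vehicle replicate 1 or WT pyridostatin replicate 2 was left out (limma adjusted p 0.0513 to 0.146) and with the replicate number as a block (0.0673). No filter (0.0584), no trend (0.0515) and only the vehicle libraries (0.115) lost it too. Its call with pyridostatin was lost without replicate 1 or 3 of WT or 1 or 2 of PARP3-/- given pyridostatin (0.0521 to 0.0655). PSAT1, phosphoserine aminotransferase, was lower by -0.17 with vehicle (limma adjusted p = 0.0496), a call lost with the replicate number as a block (0.0748) and when any library other than WT vehicle replicate 2, PARP3-/- vehicle replicate 3 or WT pyridostatin replicate 2 was left out (0.0551 to 0.167). Glutamine synthetase, GLUL, was under 1 FPKM on average and not tested in the main fit. It stood at 0.753 to 1.24 FPKM in the WT libraries and 0.507 to 0.680 in the PARP3-/- libraries, with no overlap, as did 3.66% of the genes with a mean of 0.3 to 1 FPKM in this direction.

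Among genes of arginine, ornithine and proline use, 1 of 12 tested passed with vehicle and 3 of 12 with pyridostatin, against 9.41% and 10.9% of all genes. OAT, the mitochondrial ornithine aminotransferase, was higher in PARP3-/- by 0.16 (limma adjusted p = 0.0395) and 0.18 (limma adjusted p = 0.0193). The vehicle call of OAT was lost in 12 of 20 alternatives. It was lost without any of the 6 vehicle libraries or replicate 1 of either pyridostatin group (limma adjusted p 0.0512 to 0.132) and with the replicate number as a block (0.0670). A shift to a common median (0.0851), no trend (0.0511) and only the vehicle libraries (0.1) lost it too. Its call with pyridostatin was lost without replicate 1 or 3 of either pyridostatin group (0.0544 to 0.0870). With pyridostatin DDAH1, which degrades the nitric oxide synthase inhibitor dimethylarginine, was at 5.63, 6.43 and 5.10 FPKM in WT and 7.34, 7.46 and 7.57 in PARP3-/-, a difference of 0.34 (limma adjusted p = 0.0119), against 0.07 with vehicle (limma adjusted p = 0.672). The test of the difference between these values gave 0.27 (95% interval 0.05 to 0.49, limma adjusted p = 0.999). SLC7A2, a cationic amino acid transporter, was lower with pyridostatin by -0.34 (limma adjusted p = 0.0193), a call lost without replicate 2 or 3 of WT or 1 or 2 of PARP3-/- given pyridostatin (0.0610 to 0.0678). With vehicle SLC7A2 stood at 4.33, 3.31 and 4.29 FPKM in WT and 3.10, 3.07 and 3.14 in PARP3-/-, a difference of -0.27 that did not pass (limma adjusted p = 0.0581) and that passed without WT vehicle replicate 2 (0.00149), after quantile normalization (0.00723) and after a shift to a common median (0.0191).

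Of 9 tested LKB1 partners and AMPK subunits, 0 passed limma's test in any comparison of the main fit, with 1 or 2 at an unadjusted p under 0.05 in each genotype and pyridostatin comparison. Over all genes 21.6% and 24.0% had such a p between the genotypes, with vehicle and with pyridostatin, and 20.3% and 19.6% for pyridostatin in WT and in PARP3-/-. Without WT vehicle replicate 2, STRADA passed between the genotypes with pyridostatin (0.18, limma adjusted p = 0.0372) and PRKAB1 for pyridostatin in WT (0.22, 0.0184) and PARP3-/- (0.20, 0.0114). At a mean of at least 5 FPKM PRKAB1 passed for pyridostatin in PARP3-/- too (0.20, limma adjusted p = 0.0408). PRKAG2 passed between the genotypes with pyridostatin without WT pyridostatin replicate 2 (0.19, limma adjusted p = 0.0203). Of 11 tested AMPK-related kinases, NUAK1 passed with vehicle (9.09%, against 9.41% of all genes). With pyridostatin NUAK1 and BRSK1 passed (18.2%, against 10.9%). NUAK1, an AMPK-related kinase that LKB1 can activate, was at 1.95, 1.66 and 2.08 FPKM in WT and 3.42, 3.94 and 3.67 in PARP3-/- with vehicle. With pyridostatin NUAK1 was at 2.17, 2.21 and 2.06 FPKM in WT and 3.69, 3.92 and 4.06 in PARP3-/-. Each PARP3-/- library was above each WT library, as for 6.56% of the tested genes, with a difference of 0.69 (limma adjusted p = 5.39e-05) and 0.63 (limma adjusted p = 0.000115), a call kept in all 19 alternatives that tested it. BRSK1, another kinase of this family, was higher with pyridostatin by 0.30 (limma adjusted p = 0.0327), a call lost in 7 of 19 alternatives. These were without WT pyridostatin replicate 1 or 3 or any PARP3-/- pyridostatin library (0.0612 to 0.125), after quantile normalization (0.055) and after a shift to a common median (0.0555). SIK3 was lower in PARP3-/- and passed in alternatives alone. With vehicle these were quantile normalization (-0.22, limma adjusted p = 0.0364) and no WT vehicle replicate 2 (-0.25, 0.0143). With pyridostatin they were quantile normalization (-0.24, limma adjusted p = 0.0224), a common median (0.0382), only those libraries (0.0428) and no WT vehicle replicate 2 (0.0150). The median pyridostatin difference of the 11 tested AMPK-related kinases was 0.07 in WT and 0.13 in PARP3-/-, against 0.00 over all genes, with 0 passing limma's test in the main fit and 2 and 6 at an unadjusted p under 0.05. In alternatives alone, MARK3 passed for pyridostatin in WT without a filter (0.11, limma adjusted p = 0.0320) and at a mean of at least 5 FPKM (0.11, 0.0481). NUAK2 passed for pyridostatin in PARP3-/- without PARP3-/- vehicle replicate 1 (0.34, limma adjusted p = 0.00514).

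Of 9 tested liver-enriched transcription factors, 2 passed between the genotypes with vehicle and 2 with pyridostatin, against 9.41% and 10.9% of all genes. FOXA1, a pioneer factor, was higher in PARP3-/- by 0.26 (limma adjusted p = 0.0107) and 0.35 (limma adjusted p = 0.00199), and its vehicle call was lost without PARP3-/- vehicle replicate 2 (0.0529). CEBPA, a factor known to drive liver genes that include CPS1, was lower by -0.15 with vehicle (limma adjusted p = 0.0613) and by -0.23 with pyridostatin (limma adjusted p = 0.00858). Its vehicle difference passed after a shift to a common median (-0.19, limma adjusted p = 0.0382). CEBPB was at 38.1, 48.3 and 40.3 FPKM in WT and 23.9, 27.9 and 27.9 in PARP3-/- with vehicle, a difference of -0.65 (limma adjusted p = 0.00715). With pyridostatin CEBPB overlapped between genotypes, at 35.8, 48.5 and 40.5 FPKM in WT and 44.8, 38.1 and 36.1 in PARP3-/- (-0.06, limma adjusted p = 0.830). The limma test of the difference between its responses gave 0.58 (95% interval 0.20 to 0.97) and did not pass (limma adjusted p = 0.999). FOXA3 did not pass (-0.11 and -0.23, limma adjusted p = 0.423 and 0.0557), though with pyridostatin it did in 6 alternatives (0.0274 to 0.0459). NR3C1, the glucocorticoid receptor, stood at 23.1, 16.4 and 22.7 FPKM in WT and 19, 19.7 and 19.2 in PARP3-/- with vehicle, and at 25.1, 24.7 and 25.7 in WT and 21.2, 21.6 and 22.2 in PARP3-/- with pyridostatin. The lowest WT value was again the vehicle replicate 2 that stood apart. NR3C1 did not pass in the main fit (-0.08 and -0.21, limma adjusted p = 0.704 and 0.233) and was lower in PARP3-/- without that library (-0.24 and -0.21, limma adjusted p = 0.000927 and 0.00076). With pyridostatin NR3C1 also passed when only the libraries given pyridostatin were fitted (-0.21, limma adjusted p = 0.00939). HNF4A and FOXA2 did not pass between the genotypes, and PPARA was not tested.

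For pyridostatin, 1 of the 67 linked genes passed in WT (1.49%, against 4.17% of all genes) and 4 in PARP3-/- (5.97%, against 5.56%). Without WT vehicle replicate 2 these counts were 6 and 8, where 5.94% and 13.1% of all genes passed. Added in WT were SMOX (limma adjusted p = 0.00107), ALDH4A1 (0.0174), PRKAB1 (0.0184), SAT1 (0.0381) and NR3C1 (0.0398), and in PARP3-/- NR3C1 (0.00652), PRKAB1 (0.0114), ASNS (0.0247) and SLC25A12 (0.0475). AMD1, which makes the aminopropyl donor of polyamine synthesis, fell by 0.22 in WT (limma adjusted p = 0.0365), a call lost in 13 of 20 alternatives. It was lost with the replicate number as a block (0.0697) and when any library other than WT vehicle replicate 2 or WT pyridostatin replicate 2 was left out (0.0522 to 0.133). Quantile normalization (0.122) and only the WT libraries (0.225) lost it too. In PARP3-/- SMOX, spermine oxidase, rose from 109, 111 and 110 to 128, 132 and 134 FPKM (0.25, limma adjusted p = 0.0107, and 0.0555 without pyridostatin replicate 3). In WT SMOX stood at 112, 125 and 110 FPKM with vehicle and 130, 131 and 132 with pyridostatin, a difference of 0.18 that did not pass (limma adjusted p = 0.0519) and that passed without WT vehicle replicate 2 (0.24, 0.00107) and after quantile normalization (0.23, 0.00147). SMS, spermine synthase, fell by 0.20 (limma adjusted p = 0.0140), a call lost without vehicle replicate 2 (0.0661) or 3 (0.0522) or pyridostatin replicate 3 (0.0694). CEBPB rose by 0.56 (limma adjusted p = 0.0272), a call lost without any 1 of the 6 PARP3-/- libraries (0.0570 to 0.102). FOXA2 rose by 0.37 (limma adjusted p = 0.0484), a call lost in 13 of 20 alternatives. It was lost when any library other than WT vehicle replicate 2 or WT pyridostatin replicate 2 was left out (0.0531 to 0.162). No filter (0.0784), a shift to a common median (0.0648) and no trend (0.053) lost it too. In WT the same contrast gave -0.03 for CEBPB and 0.20 for FOXA2, and neither passed (limma adjusted p = 0.934 and 0.276). Of 5 tested genes of pyrimidine synthesis and 3 other urea cycle carriers, 0 passed limma's test in any comparison, with at most 1 of each list at an unadjusted p under 0.05 in a comparison. Of these, the aspartate and glutamate carrier SLC25A13 passed between the genotypes with vehicle without WT vehicle replicate 2 (-0.14, limma adjusted p = 0.0371) or PARP3-/- vehicle replicate 3 (0.0381) and after a shift to a common median (0.0175, and 0.0460 with pyridostatin). Of 10 tested polyamine genes, 0 passed limma's test between the genotypes, with 2 at an unadjusted p under 0.05 with vehicle and 0 with pyridostatin. AMD1 passed with vehicle without WT vehicle replicate 2 (-0.21, limma adjusted p = 0.0109) and after a shift to a common median (0.0127). For the difference between the 2 pyridostatin responses, 0 of the 67 linked genes passed limma's test and 3 had an unadjusted p under 0.05, where 4.39% of all genes did and 0% passed.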

How the data were processed

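RNA-seq libraries from 12 A549 cultures (4 groups of 3) were made with a stranded mRNA kit and sequenced as single-end 75-base reads. The authors deposited one table of FPKM values, 1 column per library; per the labels' processing notes, bcl2fastq 2.16, STAR 2.5 and Cufflinks were used, with builds hg19 and mm9 named, and the annotation is not given in the sources used here. The counts that the authors tested stayed outside this work. Of 25365 names in the table, 6033 were at 0 in all libraries and 2 occurred more than once. Groups and replicate numbers come from the labels, which do not tie same-numbered cultures to a shared day or batch, and p-values measure the spread among these cultures.

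Values were taken as log2(FPKM + 1) without further scaling. The 11881 genes that averaged 1 FPKM or more were fitted with limma 3.58.1 in R 4.3.3 as one model of 4 groups, with a mean-variance trend in eBayes. Benjamini-Hochberg adjustment ran over all tested genes, and a gene passed at an adjusted p under 0.05. The procedure was tested on simulated data. The 6 members, the lists (104 of 104 genes matched, 1 by an older symbol) and the tests were chosen with earlier results of these data known. Named were the members, list genes that passed, the paralogs ARG1 and CAD, OTC and SLC25A15, the 3 nearest coding genes on each side of CPS1, the 5 most similar profiles and PARP3. GLUL and the list genes that passed in an alternative alone were named after their values were seen, and the exact permutation tests of ARG2 and NAGS were added then. Reads per library were approximated from low values that are whole multiples of 1 read (230 genes; 19.6% to 24.1% of values lay at the common step), with GENCODE release 29 transcript lengths; quartiles over genes in one library were 21000000 and 25800000, so these numbers are approximate, and FPKM carries no exact depth. Promoter windows came from RefSeq on GRCh38.p14 by symbol. Scripts used Python 3.11.15, numpy 2.4.6, pandas 2.3.3, scipy 1.17.1 and matplotlib 3.10.9. The alternatives tried are given with their effect in the closing section.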

Additional observations from a re-analysis of the deposited data

How the results depend on the processing

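Each result was recomputed with a pseudocount of 0.1, with no filter or a mean of at least 5 FPKM, after quantile normalization or a shift to a common median, with only the libraries of each comparison, without the trend, with the replicate block, with an added threshold of a 2-fold change, and with each library left out. The genotype difference of CPS1 chose the gene, so its range is a description and no support. Over the 20 alternatives it ran from -3.31 to -2.58 with vehicle and -3.51 to -2.69 with pyridostatin. With a library left out it ran from -2.73 to -2.58 and -2.84 to -2.69. ASS1 and ASL passed in no alternative. With the 2-fold threshold added, 0 linked genes passed in any comparison and STK11 passed in neither genotype (0). Linked genes that differed between the genotypes with vehicle (8) numbered 3 with only the vehicle libraries, 5 without the trend, 5 with the replicate block and 4 to 12 with a library left out. With pyridostatin (10) they numbered 6 to 16 with a library left out. For pyridostatin in WT (1) they numbered 2 without a filter, 2 at a mean of at least 5 FPKM, 2 after quantile normalization, 0 with only the WT libraries, 0 with the replicate block and 0 to 6 with a library left out. In PARP3-/- (4) they numbered 0 to 8 with a library left out. The count of members that rose with pyridostatin (1, STK11) was 0 with only the WT libraries and 0 to 1 with a library left out in either genotype; members other than CPS1 that passed between the genotypes stayed at 0 to 0, as did members and linked genes for the difference between responses.

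Over the whole table, 532 genes passed between the genotypes with vehicle with only those libraries against 1118, and 65 against 495 for pyridostatin in WT. Without WT vehicle replicate 2, 2298 passed against 1297 between the genotypes with pyridostatin and 1559 against 661 for pyridostatin in PARP3-/-. With a library left out the pyridostatin counts went down to 178 in WT and 254 in PARP3-/-. Across genotypes 43 and 47 genes passed the 2-fold threshold too, and 89 and 87 with a pseudocount of 0.1.

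The deviations of same-numbered libraries correlated at -0.12 to 0.216, not every pair of a comparison above 0.1, so the numbers were not taken as pairs. With the replicate block STK11 passed at limma adjusted p = 0.00586 in WT and 0.00369 in PARP3-/-, and the block ended the calls of ASNS, OAT and PSAT1 between the genotypes with vehicle and of AMD1 in WT and no other call of a linked gene. Between the genotypes, 6 of 6 libraries correlated best with their own number with vehicle and 2 of 6 with pyridostatin. For pyridostatin against vehicle, 2 of 6 did in WT and 5 of 6 in PARP3-/-. The 3 correlations between the genotypes with vehicle were all above 0 (0.103, 0.091 and 0.0663). Whether same-numbered cultures were handled together cannot be told from the labels. ARG2 and NAGS, with so few reads per library, allow no finer statement at this depth.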

Other observations

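Of 5 tested epithelial markers, 3 passed between the genotypes with vehicle and 3 with pyridostatin, against 9.41% and 10.9% of all genes. KRT19, a keratin of simple epithelia, was at 83.3, 103 and 85.2 FPKM in WT and 155, 167 and 167 in PARP3-/- with vehicle, a difference of 0.85 (limma adjusted p = 2.25e-05), and of 0.85 with pyridostatin (limma adjusted p = 2.08e-05). EPCAM, a cell adhesion molecule, was at 2.36, 2.15 and 1.86 FPKM in WT and 1.15, 1.20 and 1.15 in PARP3-/- with vehicle (-0.53, limma adjusted p = 0.00126; with pyridostatin -0.48, 0.00206). CDH1, E-cadherin, was lower by -0.42 with vehicle (limma adjusted p = 0.00117) and by -0.51 with pyridostatin (limma adjusted p = 0.000298), so the epithelial markers moved in both directions. Their part in the level of CPS1 was not tested.

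The lung and other cell type markers were low throughout. NAPSA was at 0.431 to 0.973 FPKM, NKX2-1 at 0.0995 or less and ALB at 0.036 or less. Of the markers of other cell types only COL1A1, a collagen gene, reached the filter of 1 FPKM. It did so only through the PARP3-/- libraries, with a mean of 1.37 FPKM there and 0.782 in the WT libraries. Its genotype values are therefore given as a description with no test. COL1A1 averaged 0.694 FPKM in WT and 1.31 in PARP3-/- with vehicle, and 0.870 against 1.43 with pyridostatin. COL1A2 and DCN, other genes of fibroblasts, were at or near 0.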
